A study of Mus musculus with 8 samples.

Results

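Interferon-induced genes and the genes of class I antigen processing were followed in epididymal fat, a visceral depot, of 8 male C57BL/6J mice. The gene set held 37 members, chosen by name as type I and type II interferon-induced genes and class I antigen processing genes. No threshold on these arrays entered the choice, but earlier results of these data were known when it was made. Of these, 35 had at least 1 probe set naming a single gene (55 probe sets in all), and all 35 were bright enough to be tested, among 11232 genes tested on the array. Isg15, the ubiquitin-like interferon product, and Psme2, a subunit of the proteasome activator, had no probe set naming them alone and have no value here.

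The mice were bought at 6 weeks of age. Mice of the telmisartan group ate a high-fat diet (HFD, 30% of calories from fat) for 24 weeks and then received telmisartan in drinking water at 3 mg/kg/day for 5 weeks. Mice of the candesartan group received candesartan at the same dose and for the same time on the same diet. HFD mice ate this diet with no drug, and chow mice a diet with 10% of calories from fat. Each group held 2 mice with 1 array each, so every comparison rested on 2 arrays against 2. The array measures whole fat tissue, in which fewer cells of a type and less RNA per cell cannot be told apart.

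Interferons are cytokines that cells release on sensing viral or self nucleic acids and, for the type II form, that T cells and NK cells release. Their receptors activate STAT proteins, which with IRF transcription factors bind the ISRE and GAS elements in the promoters of many target genes. The targets include antiviral effectors, immunity GTPases that attack the vacuoles of intracellular pathogens, and the immunoproteasome, a form of the proteasome with exchanged catalytic subunits that cuts proteins into peptides for MHC class I. Obese fat gains macrophages and lymphocytes, and both immune cells and adipocytes respond to interferon.

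Promoter stretches of 4 members are shown as examples, and each stretch holds a match to a motif named below. Ubd and Irf8 were higher in every HFD-fed group than in chow, while Igtp and Ifit1 differed by over 2-fold between the telmisartan mice. Irf5 was also higher in every HFD-fed group, and Oasl2 also differed by over 2-fold between the telmisartan mice. Yet neither Irf5 nor Oasl2 had a match in the 250 bases searched, and a further start site of Irf8 had none. A link between motif and array behaviour was not tested. The sequences are from RefSeq on build GRCm38.p6, plus strand. They cover chr17:37193792-37193891 (Ubd) and chr11:58199456-58199555 (Igtp), which end at the base before a RefSeq start site, and chr8:120736158-120736257 (Irf8) and chr19:34640769-34640868 (Ifit1), which end further upstream. Capitals mark matches to the ISRE core (GAAA, any 2 bases and GAAA, on either strand), the GAS motif (TTCNNNGAA, which reads the same on both strands) or the NF-kappaB consensus on either strand.
Ubd: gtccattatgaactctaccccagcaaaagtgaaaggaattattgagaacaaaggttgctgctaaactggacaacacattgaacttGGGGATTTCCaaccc
Irf8: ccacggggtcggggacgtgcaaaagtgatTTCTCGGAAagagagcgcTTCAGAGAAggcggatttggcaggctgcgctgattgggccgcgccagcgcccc
Igtp: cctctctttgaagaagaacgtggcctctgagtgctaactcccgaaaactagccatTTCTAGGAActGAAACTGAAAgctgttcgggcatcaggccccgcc
Ifit1: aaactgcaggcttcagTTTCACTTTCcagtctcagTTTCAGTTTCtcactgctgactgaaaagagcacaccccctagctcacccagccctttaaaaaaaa
The capitals in Ubd are an NF-kappaB match, those in Irf8 are a pair of GAS matches, those in Igtp are a GAS and then an ISRE match, and those in Ifit1 are a pair of ISRE matches.

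Promoters of 33 of the 37 members (42 start sites) were taken from the RefSeq table, and the 250 bases upstream of each start were searched. An ISRE core lay before 13 of the 33 members and in 13 of their 42 promoters, against 2.98% of all 32851 promoters. It was found in 7 of 12 antiviral effectors and in 4 of 4 GTPases (Gbp2, Gbp3, Igtp and Irgm1), but in 0 of 5 immunoproteasome genes. A GAS motif lay before 8 members and in 8 of the 42 promoters, against 7.02% of all promoters. An NF-kappaB consensus lay before 6 members and in 6 of the 42 promoters, against 7.25%. These are letter matches in a short window.

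Few members passed the test between HFD and chow fat. Ubd, Irf5 and Irf8 rose and Isg20 fell, so 4 of 35 tested members (11.4%) were called. Over all genes, 5.15% were called higher and 2.95% lower in HFD. The members' median log2 difference was 0.07, against −0.01 over all genes, with 20 members above 0 and 15 below. Under median centring the split was 15 above and 20 below, and the median −0.03, against −0.11 over all genes. Calls are those of limma at a false discovery rate of 0.05 across the whole array (Benjamini-Hochberg), with the spread of each gene estimated from all 4 groups. Signals below are array intensities scaled to a common trimmed mean, and a level is not comparable between genes.

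Ubd encodes FAT10, a ubiquitin-like modifier that interferon gamma and TNF induce and that marks proteins for the proteasome (chromosome 17, 37193892 to 37196101). Its signal was 6079 and 5561 in telmisartan mice, 4723 and 5038 in candesartan mice and 4938 and 4615 in HFD mice, against 126 and 150 in chow mice. All 6 HFD-fed mice were far above both chow mice and close to each other. HFD exceeded chow by 5.12 on the log2 scale (95% CI 4.83 to 5.41), a 34.7-fold difference (limma adjusted p = 5.65e-07). Among all genes this was the smallest p in the comparison and the 5th largest rise. The log2 difference was 5.40 for telmisartan against chow and 5.15 for candesartan against chow, with Ubd called in all 20 alternative settings of each of the 3 comparisons with chow.

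**Figure D1:**
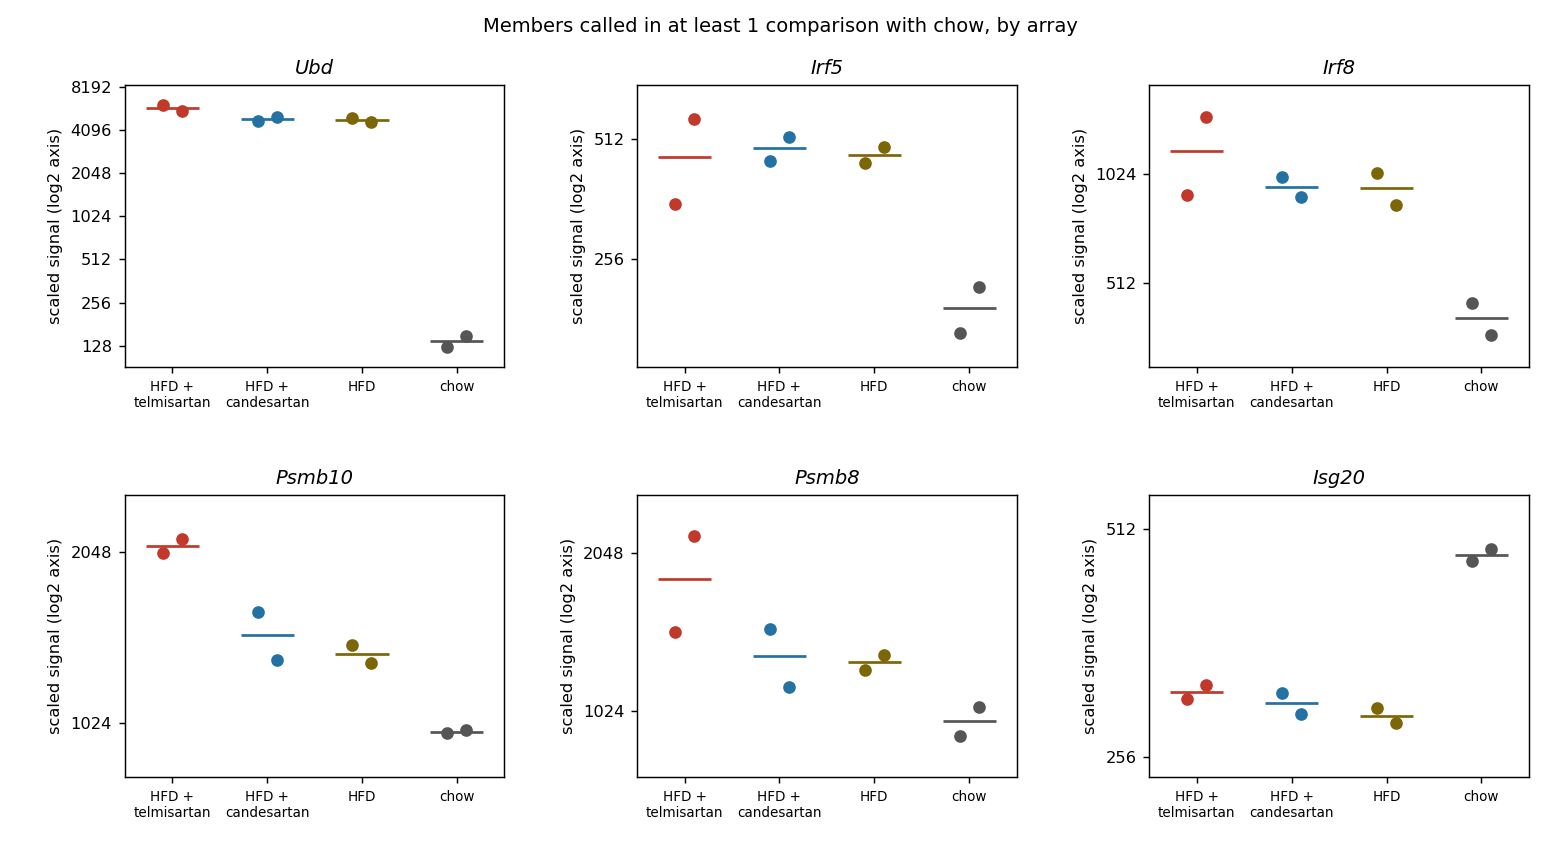
Scaled signal (log2 axis) of the 6 members called in at least 1 comparison with chow, by group; points are arrays (1 mouse each, array 1 left of array 2) and bars are means of 2 arrays. Ubd lies at 4615 to 6079 in all HFD-fed mice, against 126 and 150 in chow mice, and Isg20 is lower in every HFD-fed mouse than in both chow mice.

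Of the 6 transcription factors, 2 rose in HFD fat. Irf5, which drives inflammatory cytokine genes in macrophages, had signals of 444 and 489 in HFD mice, against 167 and 217 in chow mice. Both HFD mice lay well above both chow mice, and the log2 difference was 1.29 (95% CI 0.74 to 1.84, limma adjusted p = 0.0164). Its second probe set was dim, at 51.2 to 56.2 in HFD mice and 43.7 to 63.8 in chow mice, with a log2 difference of 0.02 that did not pass. Irf8, a factor needed for macrophage and dendritic cell development, had signals of 1035 and 840 in HFD mice, against 451 and 368 in chow mice, a log2 difference of 1.20 (95% CI 0.66 to 1.73, limma adjusted p = 0.0202). Its second probe set gave 1.21. Without either HFD array neither factor was called, and the call of Irf5 also ended without chow array 1 and that of Irf8 without chow array 2.

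Irf7, the factor that amplifies type I interferon, did not pass. Its signal was 437 and 365 in HFD mice, against 312 and 380 in chow mice, and the groups overlapped (log2 difference 0.21, 95% CI −0.47 to 0.90, limma adjusted p = 0.716). The other 3 factors, Stat2, Irf9 and Irf1, differed by 0.07 to 0.27 and did not pass. Neither nucleic acid sensor passed, with Ifih1 (MDA5) at 0.29 and Ddx58 (RIG-I) at −0.04.

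Among 13 antiviral effectors none rose and 1 fell in HFD fat, with a median log2 difference of −0.15. The 1 that fell was Isg20, an exonuclease that degrades viral RNA. It had signals of 297 and 284 in HFD mice, against 464 and 481 in chow mice, a 1.63-fold lower level in HFD (log2 difference −0.70, 95% CI −1.01 to −0.40, limma adjusted p = 0.0175). The replicates were tight, but the call ended under median centring and without any single chow or HFD array. Oas1a, which makes the messenger that activates RNase L, and Parp14, an ADP-ribosyltransferase, gave the largest positive values of this role, at 0.63 and 0.62, and did not pass (limma adjusted p = 0.232 and 0.254). Type I interferon targets lay on both sides of 0, and none of those that follow passed. Ifit1 was at −0.39, Ifit3 at −0.38 and Usp18, which removes ISG15 from proteins, at −0.45, while Rsad2 (viperin) was at 0.29 and Oasl2 at 0.13.

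The 5 interferon-inducible GTPases all had negative log2 differences in HFD against chow, with a median of −0.31, under the trimmed-mean scaling as under quantile normalization and median centring, and 0 of 5 passed. Their values ran from −0.54 (Gbp3, a guanylate-binding protein) to −0.10 (Iigp1, an immunity-related GTPase that disrupts pathogen vacuoles). Iigp1 had signals of 844 and 790 in HFD mice, against 705 and 1090 in chow mice. The HFD mice lay between the chow mice.

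Immunoproteasome genes split in HFD fat. Psmb10, a catalytic subunit, had signals of 1406 and 1305 in HFD mice, against 984 and 995 in chow mice, and Psme1, a subunit of the PA28 activator, had 2233 and 2156, against 3128 and 2781. Arrays did not overlap in either gene, and the log2 differences of 0.45 and −0.43 fell short of the threshold (limma adjusted p = 0.0748 and 0.0555). Non-overlap was common in this comparison. Of 11232 genes, 3125 had both HFD arrays above both chow arrays and 3398 had both below. Of 35 members, 12 lay above and 9 below in this way. Psmb8 was at 0.37 and Psmb9, the gene beside Tap1 in the MHC region of chromosome 17, at 0.07. The 4 peptide loading genes had values of 0.05 (Tap1, a peptide transporter subunit) to 0.17 (B2m, the light chain of class I molecules), and none passed. B2m, the brightest member, had signals of 13076 and 14822 in HFD mice, against 11863 and 12857 in chow mice.

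**Figure D2:**
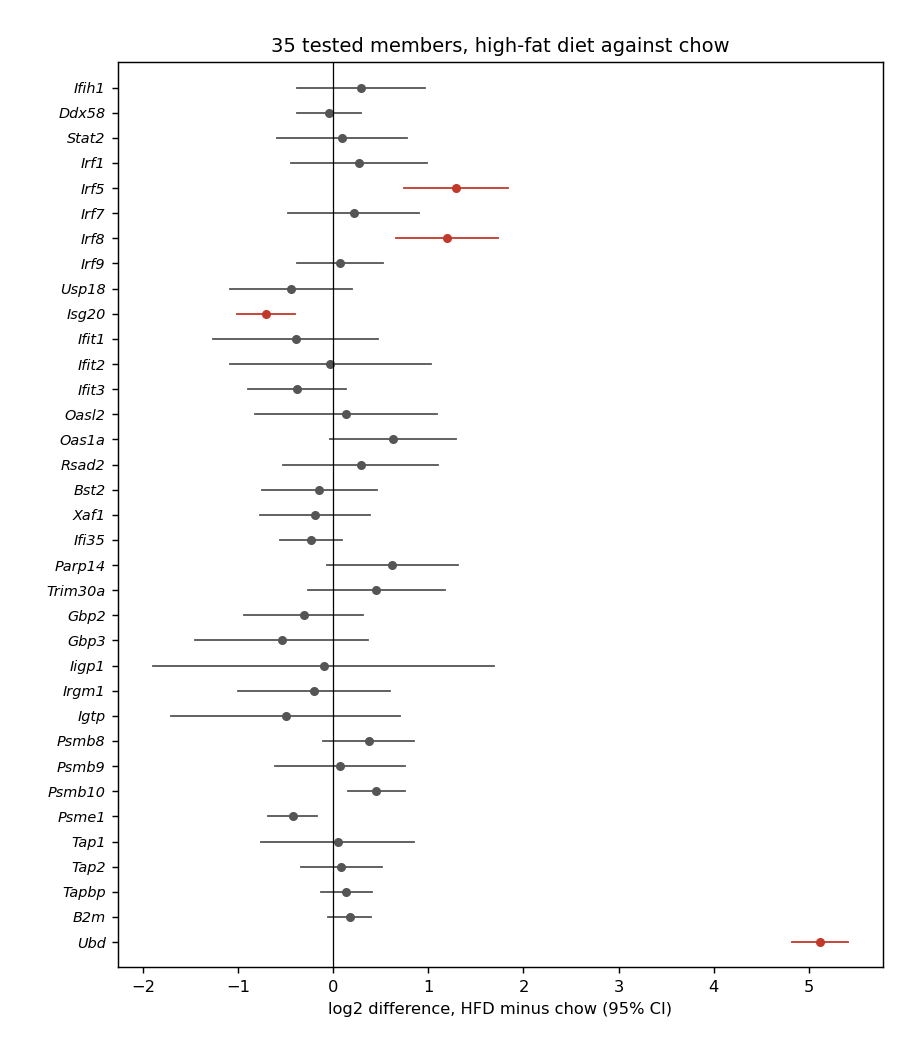
Log2 difference of HFD minus chow for the 35 tested members in order of role, sensors at the top and Ubd at the bottom; points are estimates, lines are 95% confidence intervals, and red marks the 4 called members. Ubd stands at 5.12 and Irf5 and Irf8 at 1.29 and 1.20, while the 5 GTPases lie between −0.54 and −0.10.

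Of 75 further genes of the interferon and antigen processing pathways, 62 were tested. In HFD against chow 2 rose and 0 fell. Those 2 were Ifngr2, a chain of the interferon gamma receptor (log2 difference 0.61, limma adjusted p = 0.0385), and H2-K1, a class I heavy chain (0.52, limma adjusted p = 0.0251). The 14 constitutive proteasome core genes had a median of −0.08 and none passed. Ifng and Ifnb1, the interferon genes on the list, were too dim to test. Ifng had a signal of 33.0 on telmisartan array 2 and at most 11.4 on the other arrays, with 5 of 8 arrays below the floor of 6.69.

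Markers of immune cells moved with the diet. All 9 tested macrophage markers rose in HFD fat, with a median log2 difference of 1.56. Their summed signal was 39117 and 40479 in HFD mice, against 17218 and 19023 in chow mice. Among B cell markers 2 of 5 rose and among T and NK cell markers 1 of 7, while 4 of 6 endothelial and 2 of 6 adipocyte markers fell. The 7 T and NK cell differences ran from 0.11 to 4.03. The largest was that of Il7r, with 1075 and 1131 in HFD mice, against 46.7 and 98.1 in chow mice. Cd3g had 101 and 87.0, against 55.5 and 53.4. The part of these cell types in the differences of Ubd, Irf5, Irf8 and Isg20 was not tested. Plasmacytoid dendritic cell markers did not pass, and their defining marker Siglech was too dim to test. Of 6 epididymis and testis markers 4 had a probe set naming them alone, and none of these was bright enough to test. The adipocyte markers that fell were Slc2a4, the insulin-responsive glucose transporter, and Pparg, the adipocyte transcription factor, while Adipoq (adiponectin) had a signal of 15646 and 16814 in HFD mice, against 15423 and 17415 in chow mice.

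Both drugs block the angiotensin II type 1 receptor. They share a benzimidazole and a biphenyl group, and the acidic group on the biphenyl is a carboxylic acid in telmisartan and a tetrazole in candesartan. Neither drug changed any member beyond the threshold against HFD. With telmisartan 0 of 35 members passed, and with candesartan 0 of 35. Over all genes, 0% were called in either comparison, with 696 and 140 genes at an unadjusted limma p under 0.05. For Ubd the log2 difference from HFD was 0.28 (95% CI −0.01 to 0.58) with telmisartan and 0.03 (95% CI −0.26 to 0.32) with candesartan. The intervals reach up to a 1.49-fold higher level with telmisartan and a 1.25-fold higher level with candesartan, and down to 0.835 of the HFD level with candesartan.

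With telmisartan the members' median log2 difference from HFD was 0.25, against −0.01 over all genes. Under median centring the members' median was 0.52, against 0.26 over all genes. All arrays of the telmisartan group lay above all HFD arrays for 12 of 35 members, against 18.5% of all genes. The smallest p belonged to Psmb10, Psme1 and Ifi35. Psmb10 had signals of 2042 and 2159 in telmisartan mice, against 1406 and 1305 in HFD mice, a log2 difference of 0.63 (95% CI 0.33 to 0.93) with a limma adjusted p of 0.766. Psme1 had 2739 and 2889 in telmisartan mice, against 2233 and 2156 in HFD mice (0.36, 95% CI 0.10 to 0.62). Neither gene overlapped between the groups, yet neither passed after adjustment. Ifi35, an interferon-induced leucine zipper protein, had 2073 and 1886 in telmisartan mice, against 1550 and 1421 in HFD mice (0.41, 95% CI 0.09 to 0.74). The adjusted p was 0.766 for each of these 3 genes.

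By role, the 4 measured immunoproteasome genes had all telmisartan arrays above all HFD arrays, against 18.5% of all genes, and their median was 0.56. Besides Psmb10 and Psme1 these were Psmb8, with 1447 and 2201 in telmisartan mice, against 1226 and 1306 in HFD mice, and Psmb9, with 776 and 1474, against 707 and 614. None passed. The 14 constitutive core genes, which the immunoproteasome subunits replace or join, had a median of 0.22 with 13 above 0. For 11 of these 14 genes, too, all telmisartan arrays lay above all HFD arrays. Under median centring, which raised the median of all genes by 0.26 in this comparison, the medians of these lists were 0.84 and 0.50. With candesartan the immunoproteasome median was 0.04.

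With candesartan the members' log2 differences from HFD ran from −0.16 to 0.34 with a median of 0.05, against 0.004 over all genes. Under median centring these medians were 0.20 and 0.16. The smallest p belonged to Tapbp, the peptide loading protein tapasin (0.13), Ddx58 (−0.16) and Usp18 (0.27). Further probe sets past the filter gave 0.008 for Tapbp and 0.030, of opposite sign, for Ddx58. Tapbp had signals of 4710 and 4042 in candesartan mice, against 4155 and 3811 in HFD mice, and Ddx58 had 390 and 368, against 433 and 415. Usp18 had 156 and 230 in candesartan mice, against 168 and 148 in HFD mice. Only Ddx58 did not overlap, and all 3 had a limma adjusted p of 1.0. Of 11232 genes, 2007 had both candesartan arrays above both HFD arrays and 1745 had both below.

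**Figure D3:**
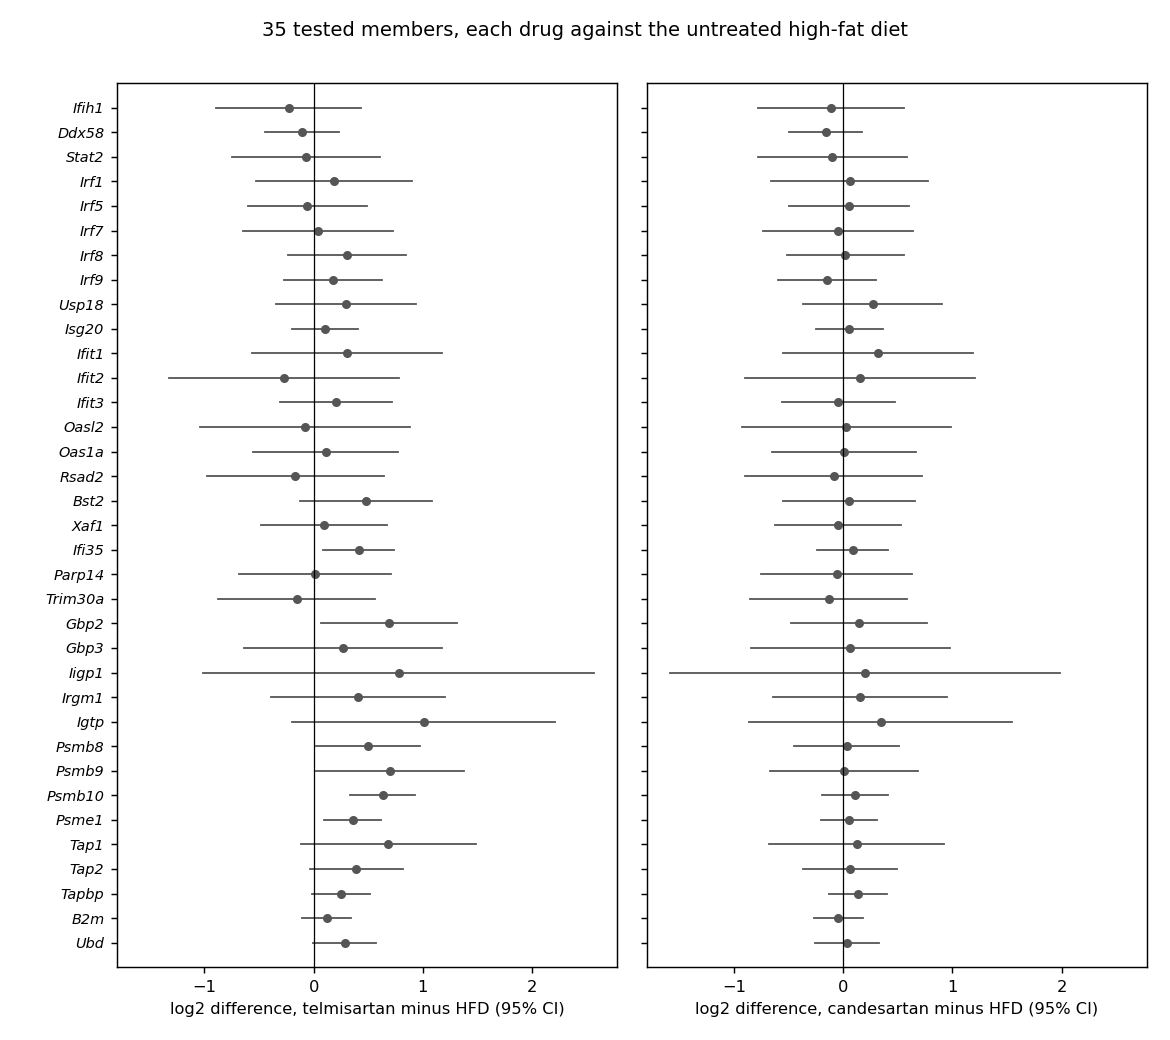
Log2 difference from HFD for the 35 tested members in order of role, telmisartan on the left and candesartan on the right; points are estimates, lines are 95% confidence intervals, and none was called. Psmb10 stands at 0.63 with telmisartan and 0.10 with candesartan, and the widest intervals belong to Iigp1 and Igtp.

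The drugs were compared directly at the matched dose and time, the 1 pair of compounds in the study. Of 35 members 0 passed, and over all genes 0% were called, with 550 at an unadjusted limma p under 0.05. Psmb10 again had the smallest p, with 2042 and 2159 in telmisartan mice, against 1604 and 1323 in candesartan mice (log2 difference 0.53, 95% CI 0.23 to 0.83, limma adjusted p = 0.924). Next came Psme1 (0.31, 95% CI 0.05 to 0.57) and Psmb9 (0.69, 95% CI 0.01 to 1.37). Psme1 had 2739 and 2889 in telmisartan mice, against 2332 and 2211 in candesartan mice, and did not overlap. Psmb9 had 776 and 1474, against 818 and 536, and overlapped. Of 11232 genes, 1750 had both telmisartan arrays above both candesartan arrays and 1865 had both below. The Ubd interval of −0.04 to 0.54 around 0.25 leaves room for no difference and for a 1.46-fold higher level with telmisartan.

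The comparisons of the drug groups with chow share the chow arrays with the diet comparison, so their values are given side by side. Against chow, 5 members rose and 1 fell with telmisartan, where 4.96% of all genes were called higher and 3.48% lower. With candesartan 4 rose and 1 fell, where 4.48% of all genes were called higher and 2.11% lower. Irf5 was called in both, at 1.24 with telmisartan and 1.34 with candesartan, and so were Irf8 (1.50 and 1.21) and Isg20 (−0.60 and −0.65). With telmisartan the call held in 17 of 20 alternative settings for Irf5, 19 for Irf8 and 11 for Isg20. With candesartan it held in 16 for Irf5, 16 for Irf8 and 13 for Isg20, and the Isg20 call ended under median centring with both drugs. Their signals were 350 and 573 (Irf5), 900 and 1475 (Irf8) and 305 and 319 (Isg20) in telmisartan mice. In candesartan mice they were 451 and 518 (Irf5), 1010 and 884 (Irf8) and 311 and 291 (Isg20).

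Psmb10 rose against chow with both drugs, by 1.09 with telmisartan (95% CI 0.78 to 1.39, limma adjusted p = 0.00287) and by 0.56 with candesartan (95% CI 0.26 to 0.86, limma adjusted p = 0.0429). With telmisartan it was called in all 20 alternative settings, and with candesartan in 8 of 20. Psmb8, the catalytic subunit beside the Tap genes on chromosome 17, rose by 0.87 with telmisartan (95% CI 0.39 to 1.35, limma adjusted p = 0.0393), and that call held in 9 of 20 settings. With candesartan Psmb8 was at 0.40 and did not pass. Among the further pathway genes 7 of 62 rose with telmisartan and 2 with candesartan against chow, and none fell. H2-K1 (0.81 and 0.44) and Ifngr2 (0.80 and 0.63) were called with both drugs. Zbp1, a sensor of Z-form nucleic acid, rose by 1.41 and Cxcl10, a chemokine that draws T cells, by 1.49 with telmisartan. Ifnar2 rose by 0.52, Lgals3bp by 0.58 and Pdia3 by 0.47 with telmisartan. Against chow, 7 of 9 macrophage markers rose with telmisartan and 7 of 9 with candesartan, and 3 of 7 T and NK cell markers rose with telmisartan and 1 of 7 with candesartan. Their part in these calls was not tested.

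For many members the 2 telmisartan mice differed from each other. Telmisartan array 2 had the highest signal of all 8 arrays for 26 of 35 members, against 15.1% of all genes. It lay above telmisartan array 1 for 32 of 35 members, against 51.4% of all genes, and by over 2-fold for 14 members (40.0%), against 3.76% of all genes. The members' median log2 difference between these mice was 0.85, against 0.02 over all genes. In the candesartan, HFD and chow groups 0 members were over 2-fold higher on array 2 than on array 1, where 0.445% of all genes were so in candesartan, 0.49% in HFD and 1.11% in chow. In the candesartan group Iigp1 and Igtp were over 2-fold lower on array 2. Array 2 of the telmisartan group was highest for 26 members under quantile normalization and for 23 under median centring, where 7.99% of all genes were highest there.

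Iigp1 had signals of 515 and 3820 in the telmisartan mice, 1445 and 608 in the candesartan mice, 844 and 790 in the HFD mice and 705 and 1090 in the chow mice. Telmisartan array 2 was 7.42-fold above array 1, and its second probe set also stood out there, at 206 and 1485. Igtp, a further immunity-related GTPase, had 440 and 1534 in the telmisartan mice, 748 and 358 in the candesartan mice, 415 and 401 in the HFD mice and 505 and 657 in the chow mice. In both genes telmisartan array 2 was the highest array and candesartan array 1 the next. All 5 GTPases were higher on array 2 of the telmisartan group, at a median of 1.38 on the log2 scale, and all 5 were lower on array 2 of the candesartan group, at a median of −0.74. Both directions held in 5 of 5 GTPases under quantile normalization and under median centring.

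Further GTPases, which were no members, had the same directions between these mice. Gbp6, Gbp7, Irgm2 and Ifi47 were 4 of 4 over 2-fold higher on telmisartan array 2, with a median of 1.60 on the log2 scale, and 4 of 4 lower on candesartan array 2, with a median of −0.48. Cxcl9, a chemokine induced by interferon gamma, had 848 and 2538 in the telmisartan mice and 1309 and 662 in the candesartan mice, against 752 and 642 in the HFD mice and 525 and 774 in the chow mice. It was picked after its values were seen.

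Targets of type I interferon differed between the telmisartan mice too. Ifit2, which binds viral RNA, had 93.4 and 311 in the telmisartan mice, 199 and 261 in the candesartan mice, 226 and 186 in the HFD mice and 190 and 231 in the chow mice. Ifit1, another RNA-binding member of the family, had 112 and 292 in the telmisartan mice, 181 and 184 in the candesartan mice, 160 and 134 in the HFD mice and 218 and 171 in the chow mice. For both genes telmisartan array 1 was the lowest of the 8 arrays and telmisartan array 2 the highest. Oasl2 was 3.03-fold higher on telmisartan array 2 than on array 1, Trim30a 2.24-fold, Rsad2 2.15-fold and Parp14 2.09-fold. Telmisartan array 1 was the lowest of all 8 arrays for 13 of 35 members, against 18.6% of all genes. Under quantile normalization it was lowest for 8 members, against 11.4% of all genes, and under median centring for 2, against 3.86%.

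In the candesartan mice some type I targets ran opposite to the GTPases. Rsad2 had 504 and 878 in the candesartan mice and Usp18 156 and 230, so both were higher on array 2, by 0.80 and 0.56 on the log2 scale. On the same array Iigp1 was lower by 1.25 and Igtp by 1.06. Of 35 members 18 were higher on array 2 of the telmisartan group and lower on array 2 of the candesartan group, and 14 were higher on array 2 of both. Of 11232 genes, 5776 were higher on telmisartan array 2 and 5797 were lower on candesartan array 2. The share of all genes with both directions is not given here.

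Some members showed little of this difference. Ubd was 0.91-fold on telmisartan array 2 relative to array 1, Ifi35 0.91-fold, Tap2 0.99-fold, Isg20 and B2m 1.04-fold, Psme1 and Tapbp 1.05-fold and Psmb10 1.06-fold. Within the immunoproteasome and its neighbours, Psmb9 was 1.90-fold higher on array 2, Tap1 2.18-fold and Psmb8 1.52-fold, although these genes and Tap2 lie within 1 stretch of chromosome 17 from 34182030 to 34216321. The spread between mice of a group, pooled over the 4 groups, placed Iigp1 at the 99.8th percentile of all genes, Igtp at the 98.6th, Ifit2 at the 97.5th and Isg20 at the 1.68th.

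**Figure D4:**
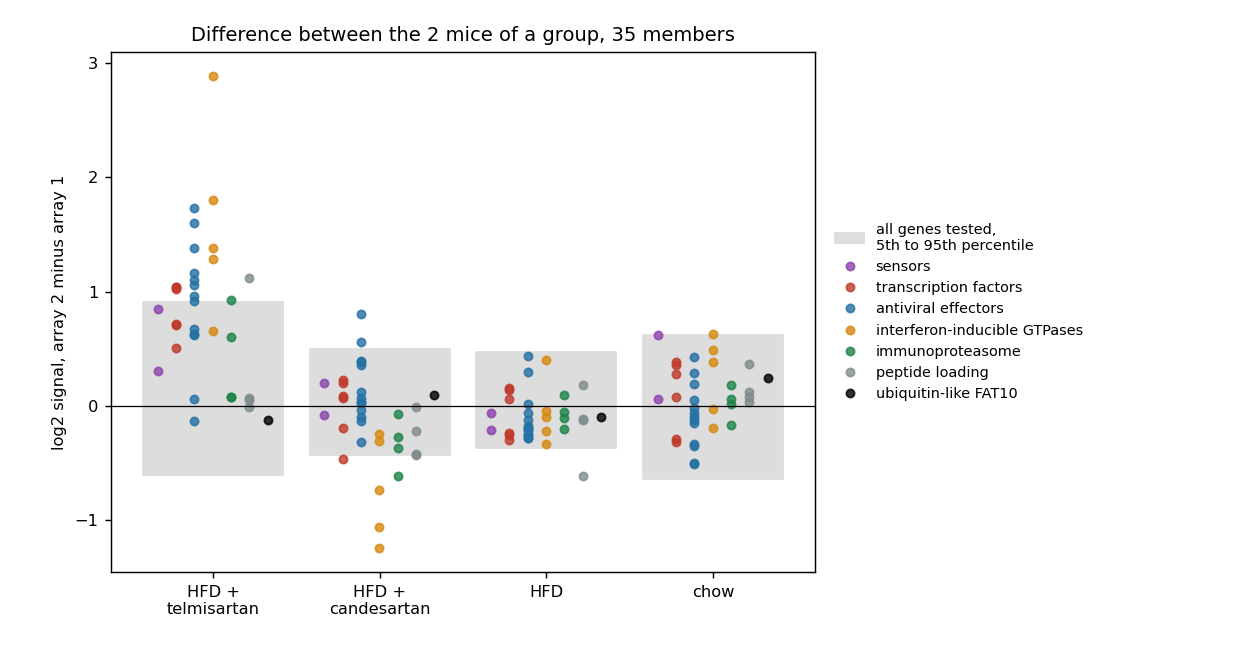
Log2 difference between array 2 and array 1 of each group for the 35 members, coloured by role; grey boxes span the 5th to 95th percentile of all genes tested in that group. In the telmisartan group 32 of 35 members lie above 0 and Iigp1 reaches 2.89, while in the candesartan group the 5 GTPases lie between −1.25 and −0.25.

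Cell markers differed between the same mice. All 9 macrophage markers were higher on array 2 than on array 1 of the telmisartan group (summed signal 34180 and 46543) and also of the candesartan group (36737 and 42082). Cd3g, a T cell receptor chain, had 66.3 and 163 in the telmisartan mice and 133 and 62.5 in the candesartan mice, against 101 and 87.0 in the HFD mice. Cd3d had 72.3 and 172 in the telmisartan mice and 167 and 56.8 in the candesartan mice, against 104 and 62.5 in the HFD mice. Over the 7 T and NK cell markers the median log2 difference of array 2 from array 1 was 1.08 in the telmisartan group, with 5 of 7 higher, and −0.85 in the candesartan group, with 5 of 7 lower. Cd8a (75.2 and 66.7) and Klrd1 (135 and 122) were the ones lower on telmisartan array 2. The summed signal of these markers was 991 and 1976 in the telmisartan mice and 1629 and 1825 in the candesartan mice. In candesartan the sum and the median thus had opposite signs. Il7r, the brightest of these markers in the candesartan mice, had 954 and 1428 there. B cell markers were 5 of 5 higher on telmisartan array 2, at a median of 0.78, and 3 of 5 lower on candesartan array 2, at a median of −1.24. The 3 tested plasmacytoid dendritic cell markers, Tcf4, Klk1 and Ly6d, were all higher on telmisartan array 2, at a median of 0.81. On candesartan array 2, 2 of 3 were higher. Siglech, the defining marker of these cells and too dim to test, had 24.4 and 25.8 in the telmisartan mice. These values therefore do not show a difference in this cell type. In Cd3g and Cd3d, as in Iigp1 and Igtp, telmisartan array 2 was the highest of the 8 arrays and candesartan array 1 the next. Among the T and NK cell markers Cd2 and Nkg7 had this order too, while Cd8a, Klrd1 and Il7r did not. Of 35 members 8 had it, and the share of all genes with this order is not given here. Among the member GTPases Gbp2 had it as well, while Gbp3 and Irgm1 did not. Of the constitutive core proteasome genes 14 of 14 were lower on array 2 of the telmisartan group, with a median of −0.27, and likewise 11 of 14 in the candesartan group (−0.08), 8 of 14 in the HFD group and 14 of 14 in the chow group (−0.25). The part of these cell types in the members' differences was not tested.

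The telmisartan comparisons rest on these 2 mice. Against HFD, the members' median was 0.56 without telmisartan array 1 and −0.13 without array 2, and against candesartan 0.58 and −0.16. Against HFD without one or the other telmisartan array, Psmb10 lay at 0.59 to 0.67, Psme1 at 0.32 to 0.40 and Ubd at 0.22 to 0.35. With telmisartan array 1 left out, 18 members in place of 6 were called against chow, and the share of all genes called was 15.0% in place of 8.44%. The diet comparison of HFD with chow then called 7 members in place of 4, and 14.1% of all genes in place of 8.09%. Without telmisartan array 2 it also called 7, and 14.3% of all genes. Oas1a, Parp14 and Psme1 were the ones added.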

How the data were processed

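RNA from epididymal fat was hybridized to Mouse Genome 430 2.0 arrays, 1 array per mouse. The values are linear signal intensities per probe set, which the authors made with the scanner maker's GeneChip Analysis Suite, per the series' design text. Which summary algorithm and which scaling between arrays were used is not given in the sources used here.

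Trimmed means of the deposited intensities (2% trimmed) differed up to 1.48 times between arrays, so each array was scaled to a common trimmed mean. Values under the 20th percentile (6.69) were raised to it and log2 values taken. Probe sets whose mean log2 value reached the 50th percentile entered the tests (22519 of 45101, after the 64 controls were left out). Genes were named from GEO's platform annotation. Of all probe sets 34958 had 1 symbol, 932 several and 9160 were not listed there. The single-symbol probe set with the highest mean stood for each gene, which left 11232 genes. Filtering and the choice of probe set used means over all arrays.

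Means of the 4 groups were fitted with limma 3.58.1 in R 4.3.3 (eBayes with an intensity trend, 4 residual degrees of freedom). P-values were adjusted by Benjamini-Hochberg over all genes tested, at a threshold of 0.05. The procedure was tested on simulated data, but the outcome is not given here and no result above rests on it. The labels do not tie the 2 mice of a group to separate litters or cages, so p-values measure the spread between these arrays. An exact permutation test of 2 arrays against 2 cannot go below 0.333, so none was used. The number of arrays limits the precision. For the median gene a 95% confidence interval reached 0.44 to each side on the log2 scale. The labels do not pair the mice by array number. Deviations of equally numbered arrays correlated at −0.04 to 0.21 between groups, which cannot settle whether equal numbers share a batch.

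The members and lists were chosen with earlier results of these data known. Array values are given for called members, for Ubd, Irf5, Irf7, Psmb8, Psmb9, B2m and Iigp1, and, where no member passed, for the 3 with the smallest p. Other genes given by array, among them Igtp, Ifit1, Ifit2, Rsad2, Usp18 and Cxcl9, were chosen after their values were seen. Alternatives were quantile normalization, median centring, other floors and filters, a pseudocount of 16, other moderation, other choices of probe set, the replicate block and leaving out each array. Figures were drawn with matplotlib 3.10.9.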

Additional observations from a re-analysis of the deposited data

How the results depend on the processing

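The members called in HFD against chow numbered 4. Without the filter on dim probe sets they numbered 2, where 0.956% of all genes were called. Leaving out 1 array gave 1 to 7, with 1 (Ubd) without either HFD array, 2 without either chow array and 7 without either telmisartan array. The share of all genes called, 8.09% with all arrays, then ran from 1.47% to 14.3%. For telmisartan against chow, 1.82% of all genes were called without the filter and 1.76% with only the 2 groups fitted. The members called numbered 6, and 3 in each of these 2 settings. Leaving out 1 array gave 3 (without chow array 1) to 18 (without telmisartan array 1), where the share of all genes called was 7.07% and 15.0%, against 8.44% with all arrays. For candesartan against chow 6.59% of all genes were called, with 5.09% under median centring and 0.901% without the filter. The members called numbered 5, with 3 under median centring and 2 without the filter. Leaving out 1 array gave 1 (without either candesartan array) to 5, with 2 without either chow array and 3 without either HFD array. In the 3 comparisons among HFD-fed groups 0 members were called by limma in all 20 alternatives. There, 696 genes for telmisartan against HFD, 140 for candesartan against HFD and 550 for telmisartan against candesartan had an unadjusted p under 0.05. The members' median ran from −0.13 to 0.56 for telmisartan against HFD and from −0.16 to 0.58 for telmisartan against candesartan when 1 array was left out. With the replicate block, 5 members were called in HFD against chow, 6 in telmisartan against chow and 5 in candesartan against chow. The block also gave calls for 11.4%, 10.9% and 8.66% of all genes in these 3 comparisons. A group left with 1 array is assumed to vary like the others. Of 15 called member values 15 kept their sign and 11 lost the call at least once. Ubd against chow in all 3 comparisons, and Psmb10 for telmisartan against chow, were called in all 20. Of 43 uncalled values that are named, 23 changed sign at least once. Iigp1 (2.12), Irf7 (0.78) and Psmb9 (1.23) were called for telmisartan against chow without telmisartan array 1. Median centring moved the median of all genes by −0.11 in HFD against chow, 0.26 in telmisartan against HFD, 0.16 in candesartan against HFD, 0.11 in telmisartan against candesartan and 0.14 in telmisartan against chow. The cause of these changes was not tested.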
